A study of Arabidopsis thaliana with 54 samples.

Results

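Whole Arabidopsis thaliana seedlings that had received gibberellin A3 (GA3, 1 µM) for 5 min were set against the control seedlings of the same time, with 3 RNA-seq libraries in each group. The comparison covered the genes whose mean reached at least 1 FPKM in either group, which were 9390 of the 23997 rows of the table. FPKM is the number of sequenced fragments scaled by gene length and library size. The study holds 54 libraries, since 4 further compounds were applied and all groups were also sampled at 30 and 180 min. Guvermectin (GV), a purine nucleoside, was given at 10 µM. The auxin IAA (indole-3-acetic acid), the cytokinin ZT (trans-zeatin) and the brassinosteroid eBL (epibrassinolide) were given at 1 µM each. The labels give no ecotype, age or solvent. Nothing states that replicate libraries were grown separately, and the p-values therefore measure a spread that may be technical. Each group has its own set of libraries, so the compound and any difference in culture or harvest between the groups cannot be told apart. In RNA of whole seedlings, fewer cells of a type and less RNA per cell cannot be told apart either. At the edge of the gene filter, MIR394B stood just inside at 0.835 FPKM with GA3 and 1.0004 FPKM in control, and MIR403 just outside at 0.786 FPKM with GA3 and 0.999 FPKM in control.

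Gibberellins are diterpenoid hormones that promote germination and the elongation of stems and leaves. The hormone binds GID1 receptors, and the bound receptor brings DELLA proteins, which hold growth genes in check, to a ubiquitin ligase for destruction. Plants keep the hormone level steady by feedback: genes of the last synthesis steps are known to be lowered by active gibberellin and genes of inactivation to be raised by it. GA3 is itself an active gibberellin and a common form for treating plants.

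The value of 1 read in each column implied totals of 17.8 to 20.2 M reads in the GA3 libraries and 19.0 to 20.0 M reads in the control libraries. Genes of the table held 32.2% to 32.5% of these reads in the GA3 libraries and 35.6% to 36.2% in the control libraries. A set of 209 abundant genes took 70.8% to 71.0% of the table's reads with GA3 and 75.8% to 76.3% in control. Leaf markers were abundant in both groups: the photosynthesis list summed to 52479 to 53993 FPKM with GA3 and 63187 to 66948 FPKM in control. The 9 root markers tested summed to 2049 to 2079 FPKM with GA3 and 832 to 873 FPKM in control. Most of this sum was 1 gene, PYK10, which averaged 2020 FPKM with GA3 and 825 FPKM in control. Of 11 root markers in the table, 1 was at 0 in all 6 libraries. Of 5 floral and pollen markers, 2 were at 0 in all 6 libraries and 1, SEP3, was high enough to test.

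Many genes differed between the GA3 and control libraries at 5 min, the larger changes being rises. With an adjusted p under 0.05 as the call, 2783 genes were higher with GA3 (29.6% of those tested) and 1488 were lower (15.8%), together 4271 or 45.5%. Of these, 589 rose and 104 fell by at least 1 on the log2(FPKM + 1) scale used for all changes here, which understates the change of low genes. The median change over all genes tested was 0.08. Of the genes tested, 1051 averaged below 1 FPKM in control and 277 averaged below it with GA3. Such genes entered through the group in which they were higher, so their direction was largely fixed by the filter. The balance of the directions depended on scaling: quantile normalization moved the median change by -0.13 and gave 1927 higher and 2403 lower genes, and median centring moved it by -0.15 and gave 1917 higher and 2669 lower genes. The distance between group means was taken as the mean absolute log2 difference over the 9890 genes that averaged 1 FPKM or more in any group at 5 min, so that no compound was favoured by the filter. It was 0.38 for GA3 against control, beside 0.34 for ZT, 0.23 for IAA, 0.22 for GV and 0.17 for eBL, all against the same control libraries. From the other compounds the GA3 group lay 0.34 (GV) to 0.37 (ZT) away. The scatter plot of all genes tested shows the wider spread above the line of equal level.

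**Figure D1:**
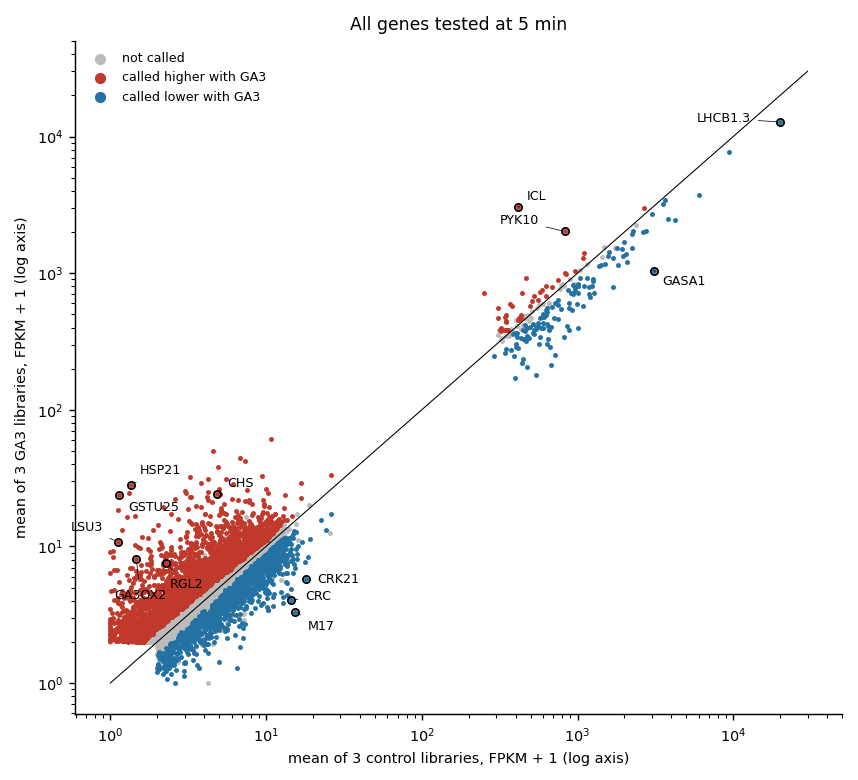
Mean level of each of the 9390 genes tested with GA3 (vertical, FPKM + 1, log axis) against control (horizontal, FPKM + 1, log axis), means of 3 libraries. Red points were called higher with GA3 (2783 genes), blue points lower (1488) and grey points were not called; circled genes are named in the text, and the empty stretch in the middle is a range of levels with no rows in the table used.

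Genes of gibberellin synthesis and DELLA genes were among those higher with GA3. GA3OX2 (AT1G80340, chromosome 1, 30200466 to 30202349, minus strand), a GA 3-oxidase that makes the active hormone in the last step of synthesis, had 6.32, 7.48 and 7.32 FPKM in the GA3 libraries, against 0.342, 0.555 and 0.505 FPKM in the control libraries (log2 change 2.45 ± 0.14 SE, adjusted p = 3.75e-11). GA3OX1 (AT1G15550, chromosome 1, 5344388 to 5346342, minus strand), another GA 3-oxidase, had 8.99, 9.93 and 7.28 FPKM in the GA3 libraries, against 2.06, 2.09 and 2.73 FPKM in the control libraries (log2 change 1.56 ± 0.13 SE, adjusted p = 1.27e-08). In both genes the lowest GA3 library lay above the highest control library, as it did in 34.7% of all genes tested, while 19.8% had all GA3 libraries below all control libraries. The control mean of GA3OX2 was below 1 FPKM, so it was tested through its GA3 level. RGL2 (AT3G03450, chromosome 3, 819337 to 821652, minus strand), a DELLA repressor best known from the control of seed germination, had 7.04, 6.07 and 6.68 FPKM in the GA3 libraries, against 1.23, 1.11 and 1.46 FPKM in the control libraries (log2 change 1.75 ± 0.11 SE, adjusted p = 2.27e-10). Its control mean was above 1 FPKM, so RGL2 passed the filter in both groups.

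RGL3, a DELLA gene linked to jasmonate responses, averaged 5.55 ± 0.302 FPKM with GA3 and 2.59 ± 0.399 FPKM in control (SD, n = 3 each), a log2 change of 0.87. RGL1 rose by 0.43 (adjusted p = 0.0322). This call was lost when GA3 replicate 2 or 3 or control replicate 2 or 3 was left out, with no filter on low values and under both other scalings. Its GA3 values of 1.90, 2.72 and 2.43 FPKM lay close above the control values of 1.89, 1.31 and 1.26 FPKM. The receptor GID1B averaged 6.47 ± 0.280 FPKM with GA3 and 7.72 ± 0.421 FPKM in control (log2 change -0.22, adjusted p = 0.0718), and with both other scalings or with the 6 compared libraries alone it was called lower. SNE, an F-box protein related to the DELLA-binding SLEEPY1, averaged 1.06 ± 0.449 FPKM with GA3 and 1.48 ± 0.333 FPKM in control and was not called (adjusted p = 0.255), except as lower with quantile normalization.

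Of the other synthesis genes, GA2, which encodes ent-kaurene synthase, averaged 2.0997 ± 0.226 FPKM with GA3 and 1.41 ± 0.255 FPKM in control, a log2 change of 0.37 that lost its call without GA3 replicate 3, without control replicate 2 and under both other scalings. KAO1, an ent-kaurenoic acid oxidase of the middle of the pathway, averaged 6.49 ± 0.408 FPKM with GA3 and 7.14 ± 0.0523 FPKM in control (log2 change -0.12), and was called lower with median centring alone. GA20OX2, which makes the substrates of the 3-oxidases, averaged 1.25 ± 0.135 FPKM with GA3 and 0.761 ± 0.221 FPKM in control (adjusted p = 0.0892). Of 12 synthesis genes in the table, 5 passed the filter, 2 of them (GA3OX2 and GA20OX2) through their GA3 level alone, and of 9 GASA genes 2 passed it. In all, 3 of 5 tested synthesis genes and 3 of 5 perception and DELLA genes passed as higher, beside 29.6% of all genes tested. In both lists 0 passed as lower, beside 15.8% of all genes tested. Their median log2 changes were 0.37 and 0.43, beside 0.08 over all genes tested.

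Of 7 inactivating genes in the table, 2 passed the filter on low values. GA2OX6, a GA 2-oxidase, averaged 8.60 ± 0.778 FPKM with GA3 and 4.32 ± 0.914 FPKM in control (log2 change 0.86 ± 0.13 SE, adjusted p = 2.26e-05). GA2OX2 averaged 1.97 ± 0.358 FPKM with GA3 and 2.56 ± 0.293 FPKM in control (log2 change -0.27, adjusted p = 0.162), called lower with both other scalings. GASA1 (AT1G75750, chromosome 1, 28441501 to 28442435, minus strand), an abundant gene of the gibberellin-regulated cysteine-rich peptides, had 1046, 1033 and 1054 FPKM in the GA3 libraries, against 3129, 3135 and 2969.9 FPKM in the control libraries (log2 change -1.56 ± 0.04 SE, adjusted p = 9.14e-17). All 3 GA3 values of GASA1 lay far below all 3 control values. GASA5 of the same family averaged 1.58 ± 0.110 FPKM with GA3 and 1.93 ± 0.431 FPKM in control and was not called, except as lower with quantile normalization. Of the 6 listed direct DELLA targets none was in the table, so they were not analysed here.

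**Figure D2:**
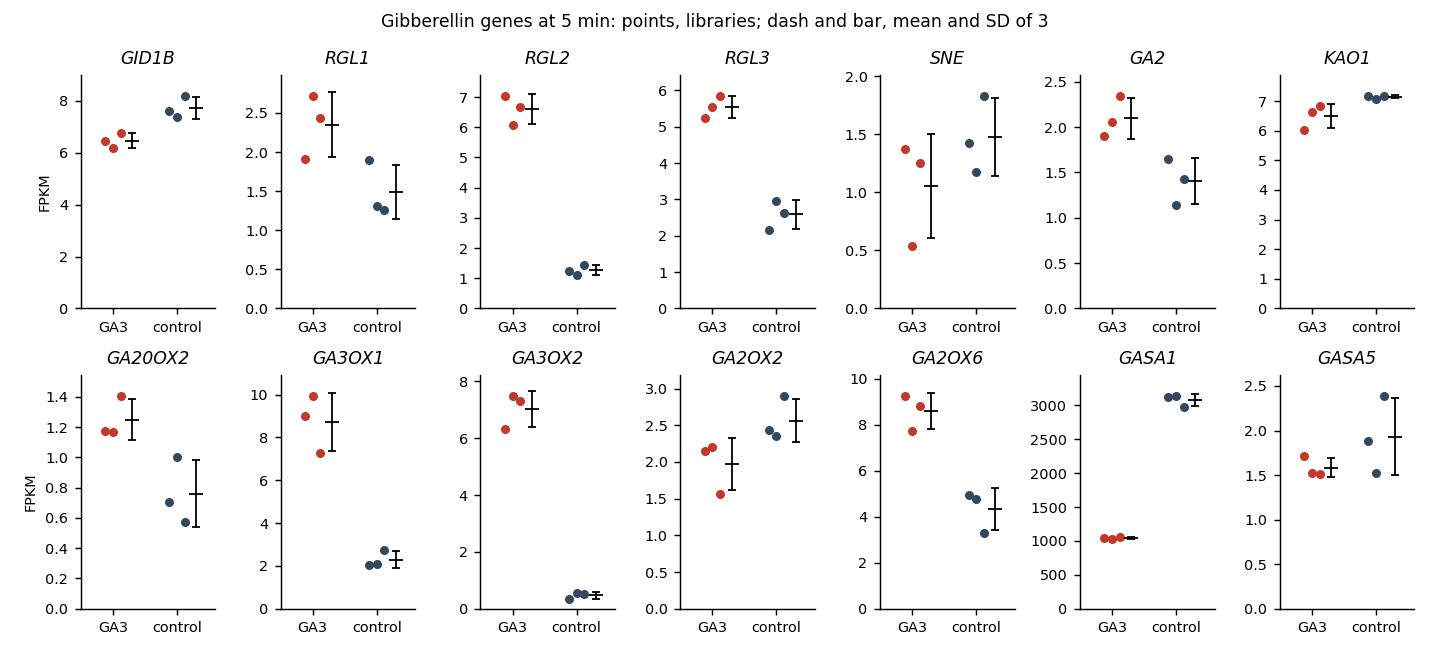
Level in FPKM (vertical, each panel with its own axis from 0) of the 14 gibberellin genes tested, in each of 3 GA3 libraries (red, left) and 3 control libraries (dark, right) at 5 min, with mean and SD. GA3OX1, GA3OX2, GA20OX2, GA2, RGL1, RGL2, RGL3 and GA2OX6 have all GA3 points above all control points, narrowly in RGL1, and GASA1, GID1B, KAO1 and GA2OX2 have them all below. In SNE and GASA5 the groups overlap.

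The 250 bases before the annotated start of GA3OX1, RGL2 and GASA1 are shown to let the changes be read beside the sequence; they come from RefSeq's TAIR10.1 assembly, which gave the same coordinates as the table for 99.9% of 23498 matched rows. Capitals mark matches, on either strand, of any of 10 searched motifs: CACGTG (G-box), TAACAAA (gibberellin response element), TTGACC (W-box), GCCGCC (GCC-box), CGCGT (CAMTA core), CCGAC (DRE core), GAANNTTC (heat shock element core), AAAATATCT (evening element), TTCCCGC (E2F site core) and GAGAC (sulfur response core). The last 2 were added after the values were seen.
GA3OX1: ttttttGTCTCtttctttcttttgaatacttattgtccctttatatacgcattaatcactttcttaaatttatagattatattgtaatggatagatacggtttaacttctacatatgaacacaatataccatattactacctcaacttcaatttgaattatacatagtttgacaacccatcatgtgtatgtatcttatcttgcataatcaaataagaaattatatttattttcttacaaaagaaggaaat
RGL2: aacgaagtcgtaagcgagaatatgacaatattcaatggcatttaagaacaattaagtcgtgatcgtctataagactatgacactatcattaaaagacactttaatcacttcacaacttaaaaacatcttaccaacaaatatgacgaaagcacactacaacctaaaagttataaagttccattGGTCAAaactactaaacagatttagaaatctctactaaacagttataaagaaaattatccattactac
GASA1: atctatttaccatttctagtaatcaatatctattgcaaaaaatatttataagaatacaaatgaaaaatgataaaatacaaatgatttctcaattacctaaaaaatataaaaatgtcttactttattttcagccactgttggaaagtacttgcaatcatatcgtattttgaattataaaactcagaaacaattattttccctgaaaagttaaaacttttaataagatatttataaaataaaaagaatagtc
These lie at chr1:5346343-5346592, chr3:821653-821902 and chr1:28442436-28442685, all on the minus strand and written 5′ to 3′ along it. None of the 3 windows holds TAACAAA, which was present in 18.1% of the promoters of genes called higher, 16.6% of those called lower and 16.4% of those of all genes tested. RGL2 holds a W-box and GA3OX1 a GAGAC. Over all genes, CACGTG was present in the promoters of 10.7% of genes called higher, 7.69% of those called lower and 7.88% of those tested. AAAATATCT was present in 2.22%, 4.55% and 2.57% of the same sets.

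Heat shock genes were among those that rose most. Small heat shock proteins are chaperones that bind unfolding proteins, and their genes are known to be switched on by heat and oxidative stress through heat shock factors. HSP21 (AT4G27670, chromosome 4, 13818825 to 13819971, minus strand), the small heat shock protein of chloroplasts, had 29.0, 24.3 and 28.5 FPKM in the GA3 libraries, against 0.203, 0.206 and 0.643 FPKM in the control libraries (log2 change 4.40 ± 0.16 SE, adjusted p = 6.41e-14). HSP17.4A, a cytosolic member, had 19.3, 27.6 and 24.3 FPKM in the GA3 libraries, against 0.133, 0.540 and 0.281 FPKM in the control libraries (log2 change 4.23 ± 0.21 SE, adjusted p = 1.16e-10). HSP26.5, a small heat shock protein, had 15.4, 15.9 and 15.02 FPKM in the GA3 libraries, against 0.191, 0.291 and 0.353 FPKM in the control libraries (log2 change 3.69 ± 0.11 SE, adjusted p = 1.52e-15). No control library reached any GA3 library in these 3 genes, as the ranking of genes by change required. All 3 averaged below 1 FPKM in control and entered through their GA3 level.

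The co-chaperone gene BAG6 averaged 30.1 ± 1.41 FPKM with GA3 and 4.53 ± 0.339 FPKM in control (log2 change 2.49). HSP70-8 averaged 28.3 ± 1.92 FPKM with GA3 and 2.80 ± 0.411 FPKM in control (log2 change 2.95). APX2, a cytosolic ascorbate peroxidase induced by heat, averaged 5.76 FPKM with GA3 and 0.0485 FPKM in control, log2 change 2.69. HSFB2A, a class B heat shock factor, averaged 10.8 FPKM with GA3 and 11.03 FPKM in control, log2 change -0.02 and was not called. Of 24 listed heat shock genes only 7 were in the table, and all 7 were tested. Of these 6 passed as higher and 0 as lower, beside 29.6% and 15.8% over all genes tested. The median log2 change of the 7 was 2.95. Of the tested members 4 averaged below 1 FPKM in control and entered through their GA3 level. Class A heat shock factors, a family chosen after its values were seen, went both ways: 3 of 11 passed as higher and 6 as lower, with a median log2 change of -0.18. HSFA7B averaged 10.6 FPKM with GA3 and 0.603 FPKM in control (log2 change 2.89). HSFA1E averaged 7.75 FPKM with GA3 and 4.36 FPKM in control, and HSFA8 averaged 5.16 FPKM with GA3 and 7.71 FPKM in control (log2 changes 0.70 and -0.50). These 3 factors were chosen after their values were seen.

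The promoters of these genes held the heat shock element core GAANNTTC in these shares: 5 of 6 windows of the heat shock genes called higher, 6 of 15 windows of the 15 genes named as rising most, 0 of 13 of the genes named as falling most. Over all genes the core was no more frequent on either side: it was present in 9.62% of genes called higher, 9.11% of those called lower and 9.57% of those tested. The 3 small heat shock genes are shown with GSTU25, a glutathione transferase gene that ranked second and holds the same core.
HSP21: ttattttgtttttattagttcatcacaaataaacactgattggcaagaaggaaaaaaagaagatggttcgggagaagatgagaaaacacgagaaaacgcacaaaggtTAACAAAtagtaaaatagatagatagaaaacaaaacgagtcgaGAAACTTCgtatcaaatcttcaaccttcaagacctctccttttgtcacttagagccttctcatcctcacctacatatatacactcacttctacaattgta
HSP17.4A: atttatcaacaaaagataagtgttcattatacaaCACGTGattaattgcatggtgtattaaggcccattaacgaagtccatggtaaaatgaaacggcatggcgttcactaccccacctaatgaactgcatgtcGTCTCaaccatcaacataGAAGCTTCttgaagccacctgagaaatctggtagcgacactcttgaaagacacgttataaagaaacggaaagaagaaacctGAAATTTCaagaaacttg
HSP26.5: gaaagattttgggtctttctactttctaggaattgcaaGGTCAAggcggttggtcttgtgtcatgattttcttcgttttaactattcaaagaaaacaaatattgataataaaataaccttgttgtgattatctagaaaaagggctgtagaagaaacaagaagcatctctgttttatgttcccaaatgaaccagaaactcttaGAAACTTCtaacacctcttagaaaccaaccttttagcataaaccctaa
GSTU25: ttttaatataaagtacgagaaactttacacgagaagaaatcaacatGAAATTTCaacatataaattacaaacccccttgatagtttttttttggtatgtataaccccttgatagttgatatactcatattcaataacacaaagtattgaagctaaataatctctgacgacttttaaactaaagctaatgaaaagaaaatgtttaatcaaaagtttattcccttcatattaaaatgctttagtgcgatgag
The windows are chr4:13819972-13820221, chr3:16984868-16985117 and chr1:19575867-19576116 on the minus strand and chr1:5871774-5872023 on the plus strand. HSP17.4A holds the core at 2 places, beside a G-box and a GAGAC, HSP21 also holds TAACAAA, and HSP26.5 also holds a W-box.

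Genes of glutathione use and sulfur limitation also rose. GSTU25 had 25.4, 20.3 and 22.6 FPKM in the GA3 libraries, against 0.0982, 0.0498 and 0.259 FPKM in the control libraries (log2 change 4.38 ± 0.15 SE, adjusted p = 2.74e-14). GSTU8 had 46.2, 50.2 and 50.5 FPKM in the GA3 libraries, against 3.38, 4.13 and 3.14 FPKM in the control libraries (log2 change 3.46). GSTU22 averaged 31.0 ± 2.66 FPKM with GA3 and 2.23 ± 0.396 FPKM in control (log2 change 3.31). Tau-class glutathione transferases join glutathione to foreign or oxidised compounds. Of 14 tested 11 passed as higher and 0 as lower, beside 29.6% and 15.8% over all genes tested. Their median log2 change was 1.21. Of the 14 tested 3 entered through their GA3 level, and 18 were in the table. Their family was chosen after its values were seen, and near-identical copies may share reads.

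LSU3, whose family is named for its response to low sulfur, had 9.66, 9.51 and 10.2 FPKM in the GA3 libraries, against 0.134, 0.204 and 0 FPKM in the control libraries (log2 change 3.28 ± 0.24 SE, adjusted p = 2.80e-09). LSU1, its neighbour on chromosome 3, had 7.83, 7.36 and 9.45 FPKM in the GA3 libraries, against 0.113, 0 and 0 FPKM in the control libraries (log2 change 3.15). LSU2 averaged 8.68 ± 1.40 FPKM with GA3 and 0.559 ± 0.0667 FPKM in control. APR1, an APS reductase of sulfate assimilation, had 18.5, 19.3 and 18.9 FPKM in the GA3 libraries, against 2.55, 2.48 and 2.64 FPKM in the control libraries (log2 change 2.48 ± 0.07 SE, adjusted p = 1.00e-15). APR2 averaged 12.6 ± 0.919 FPKM with GA3 and 4.27 ± 0.479 FPKM in control. All GA3 values of these genes lay above all control values, as the ranking required of LSU3 and LSU1.

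SDI1 and SDI2, repressors of glucosinolate synthesis under sulfur shortage, rose by 2.01 and 1.66. BGLU28, a glucosidase that breaks down glucosinolates, averaged 3.73 ± 0.413 FPKM with GA3 and 0.0157 ± 0.0136 FPKM in control. GGCT2-1, which degrades glutathione, averaged 1.59 FPKM with GA3 and was at 0 in all 3 control libraries. SHM7, a serine hydroxymethyltransferase, and the vacuolar sulfate exporters SULTR4-1 and SULTR4-2, rose by 1.25, 0.53 and 0.74. This list was also put together after its values were seen. Of 15 members in the table, 12 passed the filter, 7 of them through their GA3 level alone. All 12 were called higher, beside 29.6% of all genes tested. The 5 whose control mean reached 1 FPKM were APR1, APR2, SDI2, SHM7 and SULTR4-1. The GAGAC core was present in 3 of 12 promoter windows of the called members (25.0%), beside 25.4% of all genes tested.

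Of 11 listed detoxification genes 4 were in the table, and all 4 passed as higher, beside 29.6% of all genes tested. GSTU25, already counted among the tau-class genes, was 1 of them and entered through its GA3 level. With quantile normalization 2 of the 4 were higher and 1 was lower. OPR2, an oxophytodienoate reductase, averaged 18.5 ± 1.302 FPKM with GA3 and 2.84 ± 0.192 FPKM in control (log2 change 2.34). CYP81D8, a cytochrome P450, averaged 28.0 ± 1.45 FPKM with GA3 and 15.8 ± 0.102 FPKM in control, a log2 change of 0.78 that quantile normalization lowered to 0.03. UGT74E2, a glucosyltransferase that acts on indole-3-butyric acid, averaged 32.3 ± 1.62 FPKM with GA3 and 25.0 ± 1.04 FPKM in control, a log2 change of 0.36 that turned to -0.36 with quantile normalization. CYP71A12, a P450 of camalexin and indole-3-carbonyl synthesis, had 15.4, 15.7 and 15.8 FPKM in the GA3 libraries, against 0.401, 0.576 and 0.353 FPKM in the control libraries (log2 change 3.53).

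The other genes ranked in the first 15 that rose were of mixed function. LFG4 (AT1G03070), of the Bax inhibitor-1 family of membrane proteins, had 17.5, 19.3 and 15.7 FPKM in the GA3 libraries, against 0.160, 0.162 and 0.0422 FPKM in the control libraries (log2 change 4.04). SCPL44, a serine carboxypeptidase-like protein, averaged 12.2 ± 0.483 FPKM with GA3 and 0.189 ± 0.0426 FPKM in control. Both genes had control values below 1 FPKM in every library. AtGH9B15, a glycosyl hydrolase of the endoglucanase family, averaged 21.2 ± 0.746 FPKM with GA3 and 1.61 ± 0.0980 FPKM in control. AT1G60750, an aldo/keto reductase, averaged 8.09 FPKM with GA3 and was at 0 in all 3 control libraries. AT5G55410, of the lipid-transfer protein superfamily, averaged 18.6 ± 0.952 FPKM with GA3 and 1.17 ± 0.503 FPKM in control. AT1G07690 averaged 24.3 ± 2.66 FPKM with GA3 and 2.03 ± 0.478 FPKM in control.

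Genes of the cell cycle rose together by smaller amounts, with its inhibitors KRP2 and SMR1 among them (log2 changes 0.78 and 0.51). PCNA1, the sliding clamp of DNA polymerase, had 13.2, 13.4 and 14.8 FPKM in the GA3 libraries, against 6.62, 6.403 and 5.59 FPKM in the control libraries (log2 change 1.04 ± 0.11 SE, adjusted p = 2.33e-07). MCM7, a subunit of the replication helicase, had 10.97, 9.67 and 10.1 FPKM in the GA3 libraries, against 5.33, 5.41 and 6.06 FPKM in the control libraries (log2 change 0.77 ± 0.07 SE, adjusted p = 4.82e-08). MCM3, MCM5 and MCM2 of the same helicase rose by 0.88, 0.74 and 0.72. KNOLLE, the syntaxin of the cell plate, averaged 7.46 FPKM with GA3 and 3.49 FPKM in control, log2 change 0.92. The B-type cyclin CYCB1-1 averaged 2.54 FPKM with GA3 and 1.31 FPKM in control, log2 change 0.62, and CYCD3-1, a D-type cyclin, averaged 7.99 FPKM with GA3 and 8.12 FPKM in control, log2 change -0.02 and was not called. In all 16 of 17 tested members passed as higher and 0 as lower, beside 29.6% and 15.8% over all genes tested. The median log2 change was 0.72. TTCCCGC was present in 3 of 16 promoters of those called higher and in 1.48% of those of all genes tested.

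Of 10 flavonoid synthesis genes in the table, 6 passed the filter, 2 of them through their GA3 level alone. All 6 were called higher, beside 29.6% of all genes tested. CHS, chalcone synthase at the entry of the pathway, had 24.0, 23.3 and 22.4 FPKM in the GA3 libraries, against 3.87, 3.27 and 4.30 FPKM in the control libraries (log2 change 2.34 ± 0.10 SE, adjusted p = 5.85e-13). FLS1, flavonol synthase, averaged 7.66 ± 0.917 FPKM with GA3 and 1.41 ± 0.137 FPKM in control. DFR, which leads to anthocyanins, averaged 1.78 ± 0.167 FPKM with GA3 and 0.155 ± 0.0928 FPKM in control. The flavonol glucosyltransferase UGT78D2 averaged 11.98 ± 0.514 FPKM with GA3 and 5.54 ± 0.783 FPKM in control. CHI, chalcone isomerase, averaged 10.9 FPKM with GA3 and 5.19 FPKM in control, log2 change 0.95.

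Seed genes moved in both directions: 8 of 14 tested passed as higher and 6 as lower, beside 29.6% and 15.8% over all genes tested. ECP63 and EM1, late embryogenesis abundant proteins of drying seeds, rose: ECP63 had 29.7, 29.0 and 31.9 FPKM in the GA3 libraries, against 4.07, 2.94 and 2.69 FPKM in the control libraries (log2 change 2.89). EM1 had 24.2, 22.7 and 24.0 FPKM in the GA3 libraries, against 2.27, 1.53 and 2.39 FPKM in the control libraries (log2 change 3.02). OLEO2, an oil body protein, averaged 9.81 FPKM with GA3 and 2.12 FPKM in control, log2 change 1.79. M17 (AT2G41260), a late embryogenesis abundant gene, had 2.66, 1.999 and 2.32 FPKM in the GA3 libraries, against 15.96, 14.4 and 12.5 FPKM in the control libraries (log2 change -2.20 ± 0.15 SE, adjusted p = 7.40e-10). CRC, the storage protein cruciferin C, averaged 3.04 ± 0.737 FPKM with GA3 and 13.4 ± 0.485 FPKM in control (log2 change -1.85). Against the mean of the other 4 compounds CRC was higher with GA3, by 0.47 (adjusted p = 0.00284). ABI3, a regulator of seed maturation, averaged 5.46 FPKM with GA3 and 2.32 FPKM in control, log2 change 0.96.

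Among seed lipid genes, ICL (AT3G21720, chromosome 3, 7652487 to 7656053, minus strand), the isocitrate lyase of the glyoxylate cycle that turns stored fat into sugar, had 3081, 3048 and 2984 FPKM in the GA3 libraries, against 413, 390.1 and 438 FPKM in the control libraries (log2 change 2.88 ± 0.05 SE, adjusted p = 5.41e-18). PCK1, the carboxykinase of gluconeogenesis, averaged 465 ± 3.81 FPKM with GA3 and 308 ± 6.31 FPKM in control (log2 change 0.60). In both genes all 3 control libraries lay below all 3 GA3 libraries.

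Of 9 root markers tested 6 passed as higher and 1 as lower, beside 29.6% and 15.8% over all genes tested. Their median log2 change was 0.75, and 3 had entered through their GA3 level. PYK10, the abundant glucosidase of root ER bodies, had 2006, 2034 and 2019.5 FPKM in the GA3 libraries, against 822, 806 and 848 FPKM in the control libraries (log2 change 1.29 ± 0.04 SE, adjusted p = 2.27e-15). PRP3, a root hair cell wall protein, averaged 13.95 ± 1.204 FPKM with GA3 and 2.29 ± 0.921 FPKM in control. The groups did not overlap in PYK10 or PRP3. Of the root hair expansins, EXPA7 averaged 7.39 ± 1.03 FPKM with GA3 and 2.19 ± 0.779 FPKM in control. EXPA18 averaged 4.25 ± 0.446 FPKM with GA3 and 0.915 ± 0.355 FPKM in control. TIP2-3, a root aquaporin, was the member that fell, by 0.77. The root list thus moved with the rises in the lists above, and its part in them was not tested.

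Photosynthesis genes were mostly lower with the values as deposited: 12 of 19 passed as lower and 4 as higher. Over all genes tested 15.8% were lower and 29.6% higher. The median log2 change of the list was -0.15. With quantile normalization the direction turned, with 10 higher, 2 lower and a median of 0.11. LHCB1.3, a chlorophyll-binding protein of the main antenna, averaged 12775 ± 268 FPKM with GA3 and 20002 ± 1313 FPKM in control (log2 change -0.64, and 0.00 with quantile normalization). PSBO1, the oxygen-evolving complex protein, averaged 2031 ± 10.4 FPKM with GA3 and 2756 ± 71.5 FPKM in control (log2 change -0.44). LHCA2 of photosystem I fell by 0.35, and RBCS1A, a small subunit of Rubisco, fell by 0.28. LHCB1.3 and RBCS1A held the first and the second rank in every 5 min library, so quantile normalization sets their change to 0 by construction. PSBO1 and LHCA2 lost their calls under it, LHCB1.3 lost its call with all 54 libraries fitted, and near-identical antenna and Rubisco copies may share reads.

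Lists of other hormones moved less uniformly, and their counts stand beside 29.6% higher and 15.8% lower over all genes tested. Of abscisic acid and cold genes 4 of 7 passed as higher and 1 as lower: KIN1, a small cold- and drought-induced protein, averaged 5.66 ± 0.894 FPKM with GA3 and 0.101 ± 0.0930 FPKM in control. RD29A, a drought marker, averaged 14.1 ± 0.621 FPKM with GA3 and 5.82 ± 0.162 FPKM in control. CYP707A3, an abscisic acid hydroxylase, averaged 6.63 ± 0.981 FPKM with GA3 and 2.25 ± 0.323 FPKM in control. HAI2, a phosphatase of the pathway, rose by 0.69, a call lost with quantile normalization. KIN1 and HAI2 entered through their GA3 level, and NAC019, the member called lower, through its control level. Of ethylene genes 2 of 6 passed as higher and 3 as lower: ACO1, an ACC oxidase, averaged 8.77 ± 0.347 FPKM with GA3 and 1.11 ± 0.0737 FPKM in control (log2 change 2.21). The ACC synthase ACS6 rose by 0.83, and the synthase ACS7 and the receptor ERS2 fell by 0.66 and 0.35, the call for ERS2 being lost when all 54 libraries were fitted. Of jasmonate genes 6 of 14 passed as higher and 3 as lower: the synthesis genes AOS, AOC3 and OPR3 rose by 0.88, 0.84 and 0.45, and CYP94B3, which inactivates jasmonoyl-isoleucine, fell by 1.05. Other members did not follow this split: LOX2, which entered through its control level, fell by 0.47, CYP94C1 rose by 0.59, and AOC1 and LOX4 were not called. Against the mean of the other 4 compounds AOS was higher by 0.43, and AOC3 and OPR3 were not called.

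Of salicylate defence genes 3 of 12 passed as higher and 4 as lower: the salicylate synthesis gene ICS1 averaged 10.6 ± 0.873 FPKM with GA3 and 5.64 ± 0.139 FPKM in control. FMO1, which makes the immune signal N-hydroxypipecolic acid, rose by 0.88, and the immune regulator SAG101 and the receptor kinase SIRK fell by 0.69 and 0.68. Of the 12 salicylate genes tested, 2 entered through their GA3 level, FMO1 among them, and 1 through its control level. Of touch and rapid stress genes 7 of 13 passed as higher and 0 as lower, with the zinc finger genes ZAT10 and ZAT11 up by 0.92 and 1.68 and the calmodulin-like genes CML37 and CML39 up by 1.17 and 1.096. Of the 13 tested, 5 entered through their GA3 level, ZAT11, CML37 and CML39 among them. Of auxin response genes 5 of 14 passed as higher and 0 as lower, with SAUR19 at 1.01 and SAUR9 at 0.94. Of the 14 tested, 3 entered through their GA3 level, SAUR19 among them. Against the mean of the other 4 compounds the same list had 1 higher and 10 lower, with a median of -0.64, SAUR19 at -0.35 (adjusted p = 0.0252) and SAUR9 at -0.05. The higher share against control was near that of all genes. LBD18 and SAUR63 rose by 0.47 and 0.43, calls that both other scalings ended. The call for SAUR63 was also lost without GA3 replicate 1, without control replicate 2, with no filter and with all 54 libraries. Reads of the SAUR copies may be shared among them.

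Of cytokinin response genes 2 of 8 passed as higher and 0 as lower, no larger a share than over all genes, and 2 were higher and 3 lower against the mean of the other 4 compounds. The response regulator ARR3 averaged 1.63 ± 0.221 FPKM with GA3 and 0.295 ± 0.213 FPKM in control, and CRF1 rose by 0.40, a call lost without GA3 replicate 2 or 3 or any control replicate and under both other scalings. ARR3 entered through its GA3 level. Both brassinosteroid genes that passed (2 of 3) were lower, CYP734A1, which inactivates brassinosteroids, by 0.42 and CYP90B1, a synthesis enzyme, by 0.33. Of 14 listed clock genes 5 were in the table, and of these 4 passed as higher and 0 as lower. LHY and CCA1, morning repressors, rose by 0.60 and 0.34, and RVE8 and LNK1 by 0.35 and 0.25. Median centring ended the calls of CCA1, RVE8 and LNK1, and that of LNK1 was also lost with quantile normalization, without GA3 replicate 1 and without control replicate 2.

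Of 14 listed cell wall expansion genes 5 were in the table, and of these 3 passed as higher and 2 as lower. XTH17 and XTH20, genes of enzymes that remodel wall xyloglucan, rose by 1.51 and 0.81. XTH20 entered through its GA3 level. The abundant XTH24 averaged 409 ± 7.01 FPKM with GA3 and 855 ± 16.7 FPKM in control. XTH4 averaged 401 ± 4.96 FPKM with GA3 and 491 ± 12.003 FPKM in control, a call lost with quantile normalization. Of 12 listed low-oxygen genes 3 were in the table, and of these 2 passed as higher and 0 as lower. The factor HRE2 rose by 1.32 and sucrose synthase SUS1 by 0.62. NIA2, nitrate reductase, fell by 0.31 (0 of 3 nitrate genes higher and 1 lower), a call lost with quantile normalization. SEP3, the floral marker, averaged 1.14 ± 0.311 FPKM with GA3 and 2.51 ± 0.457 FPKM in control (log2 change -0.71). Of 12 growth regulators on the PIF and PRE list 6 were in the table and 3 were tested. These were IBH1, HFR1 and ATHB2, so no PIF or PRE gene itself was tested. Their log2 changes were -0.25 to 0.15 with adjusted p of 0.0756 to 0.973, so none was called. With quantile normalization 1 of the 3 was called lower, and with median centring also 1. The plot of list members sets the changes of most lists beside the spread of all genes tested. It leaves out the low-oxygen, nitrate, floral and pollen, PIF and PRE, cytokinin and brassinosteroid lists.

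**Figure D3:**
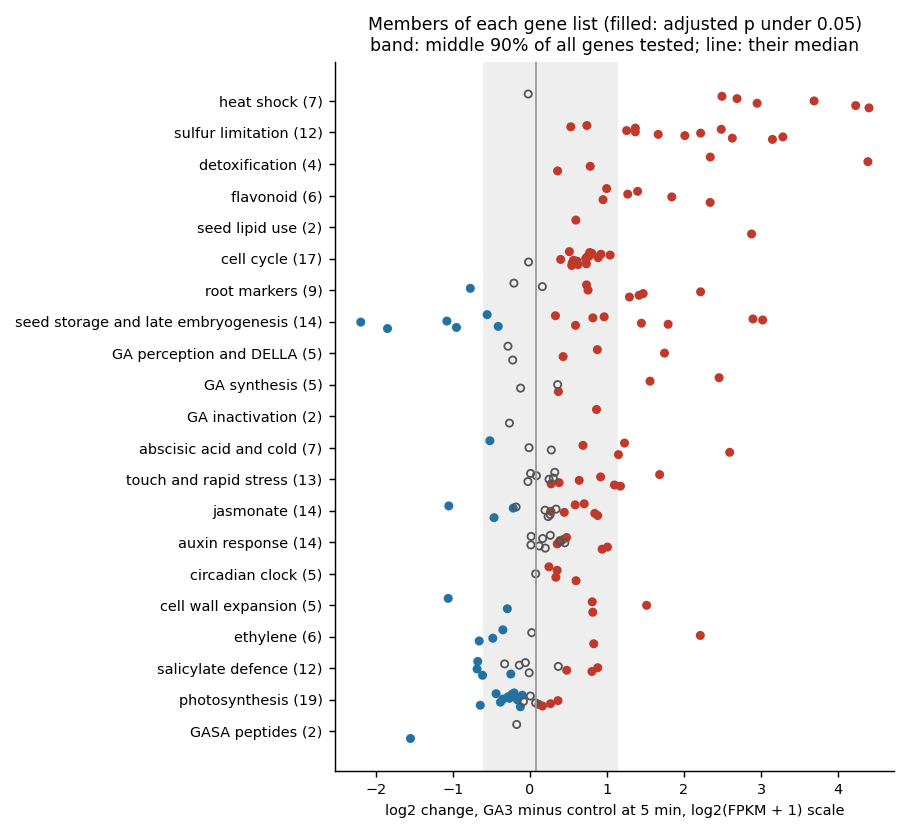
Log2 change with GA3 against control at 5 min (horizontal, log2(FPKM + 1) scale) of each tested member of 21 gene lists (rows, with the number of members). The sulfur limitation list was put together after its values were seen, and 7 of its 12 members entered through their GA3 level alone. Filled points passed the test (red higher, blue lower) and open points did not; the 6 called heat shock members lie to the right of the grey band, the middle 90% of all genes tested (-0.60 to 1.13).

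Genes that fell most were a mixed set of smaller changes. CRK21, a cysteine-rich receptor-like kinase, had 4.36, 4.53 and 5.33 FPKM in the GA3 libraries, against 17.1, 16.1 and 17.9 FPKM in the control libraries (log2 change -1.66 ± 0.08 SE, adjusted p = 2.75e-12). BCAT2, a branched-chain aminotransferase of amino acid breakdown, had 177, 181 and 177 FPKM in the GA3 libraries, against 529, 547 and 536 FPKM in the control libraries (log2 change -1.59 ± 0.04 SE, adjusted p = 1.50e-16). The abundant AT1G19530 averaged 213 ± 8.92 FPKM with GA3 and 671 ± 21.8 FPKM in control (log2 change -1.65). CYP71B4, a cytochrome P450, averaged 3.27 ± 0.451 FPKM with GA3 and 13.1 ± 1.01 FPKM in control. ERF013, an ethylene response factor, averaged 2.40 ± 0.264 FPKM with GA3 and 9.28 ± 0.354 FPKM in control. In all of these the groups did not overlap, as the ranking required.

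AT2G34317 averaged 0.289 ± 0.142 FPKM with GA3 and 5.48 ± 1.24 FPKM in control. AT1G78720, a SecY-type translocase subunit, averaged 0.432 ± 0.146 FPKM with GA3 and 3.99 ± 0.0945 FPKM in control. AT3G50570 averaged 2.83 ± 0.303 FPKM with GA3 and 11.8 ± 1.01 FPKM in control. All 3 genes had every GA3 library below every control library, as the ranking required. AT1G10340, an ankyrin-repeat protein, averaged 3.38 ± 0.239 FPKM with GA3 and 12.6 ± 1.01 FPKM in control. AT1G21770, an acyltransferase, averaged 2.68 ± 0.974 FPKM with GA3 and 10.1 ± 1.13 FPKM in control. AT3G55566, the microRNA gene MIR169B and the chloroplast tRNA gene TRNS.2 averaged 0.838, 1.25 and 1.14 FPKM with GA3, against 5.80, 5.34 and 6.09 FPKM in control. These are short genes with 0 to 9 reads with GA3 and 6 to 22 in control, and the call for TRNS.2 was lost without GA3 replicate 1 or control replicate 2.

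Setting GA3 beside the other compounds at 5 min, without the control libraries, gave each gene a second reference. Against the mean of the other 4 compounds 2726 genes were higher and 1809 lower with GA3 (48.3% of those tested), or 2079 and 2448 with quantile normalization. Against single compounds 3932 genes (41.9%) were called against IAA, 4077 (43.4%) against ZT, 3776 (40.2%) against eBL and 3794 (40.4%) against GV, which was given at 10 µM.

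GA3OX1, GA3OX2, RGL2, GASA1 and GA2OX6 differed between GA3 and each other compound, apart from GA2OX6 with ZT. GA3OX2 averaged 7.04 FPKM with GA3, 0.164 with IAA, 0.734 with ZT, 0.111 with eBL, 1.53 with GV and 0.467 in control, and GA3 exceeded the mean of the other compounds by 2.39 ± 0.11 (adjusted p = 1.34e-12). RGL2 averaged 6.59 FPKM with GA3, 1.24 with IAA, 1.34 with ZT, 1.001 with eBL, 2.11 with GV and 1.27 in control (difference 1.67), and GA3OX1 differed from the mean of the other compounds by 1.21. GASA1 averaged 1044 FPKM with GA3, 2695 with IAA, 1800.4 with ZT, 2132 with eBL, 2038 with GV and 3078 in control, so it was below control with every compound and lowest with GA3, whose difference from the mean of the other 4 was -1.04. GA2OX6 was higher with GA3 than with IAA, eBL and GV, but reached 10.8 FPKM with ZT, a difference of -0.30 (adjusted p = 0.071).

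Heat shock genes were also high with GV and ZT. HSP21 averaged 27.3 FPKM with GA3, 0.467 with IAA, 15.7 with ZT, 1.66 with eBL, 25.4 with GV and 0.351 in control, and GA3 differed from GV by 0.11 (adjusted p = 0.617) and from ZT by 0.76 (adjusted p = 6.00e-04). HSP26.5 averaged 15.4 FPKM with GA3, 0.0978 with IAA, 11.8 with ZT, 0.769 with eBL, 15.01 with GV and 0.278 in control, with a difference from GV of 0.04 (adjusted p = 0.784) and from ZT of 0.36 (adjusted p = 0.00905). HSP17.4A differed from GV by 0.34 (adjusted p = 0.224) and from ZT by 0.35 (adjusted p = 0.199), neither past the threshold, while BAG6 was higher with GA3 than with GV by 0.76 (adjusted p = 2.46e-08).

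LSU3, APR1 and GSTU25 had their highest mean with GA3. LSU3 averaged 9.79 FPKM with GA3, 0.137 with IAA, 0.904 with ZT, 0.203 with eBL, 1.66 with GV and 0.113 in control. APR1 averaged 18.9 FPKM with GA3, 2.23 with IAA, 5.65 with ZT, 3.29 with eBL, 6.50 with GV and 2.56 in control. GSTU25 averaged 22.7 FPKM with GA3, 0.319 with IAA, 1.45 with ZT, 0.979 with eBL, 2.55 with GV and 0.136 in control. ICL averaged 3038 FPKM with GA3, 598 with IAA, 817 with ZT, 444 with eBL, 1489.7 with GV and 413 in control, the GV group coming nearest to GA3. CYP71A12 averaged 15.7 FPKM with GA3, 0.558 with IAA, 12.6 with ZT, 1.63 with eBL, 7.79 with GV and 0.443 in control, with a difference from ZT of 0.30 (adjusted p = 0.03).

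**Figure D4:**
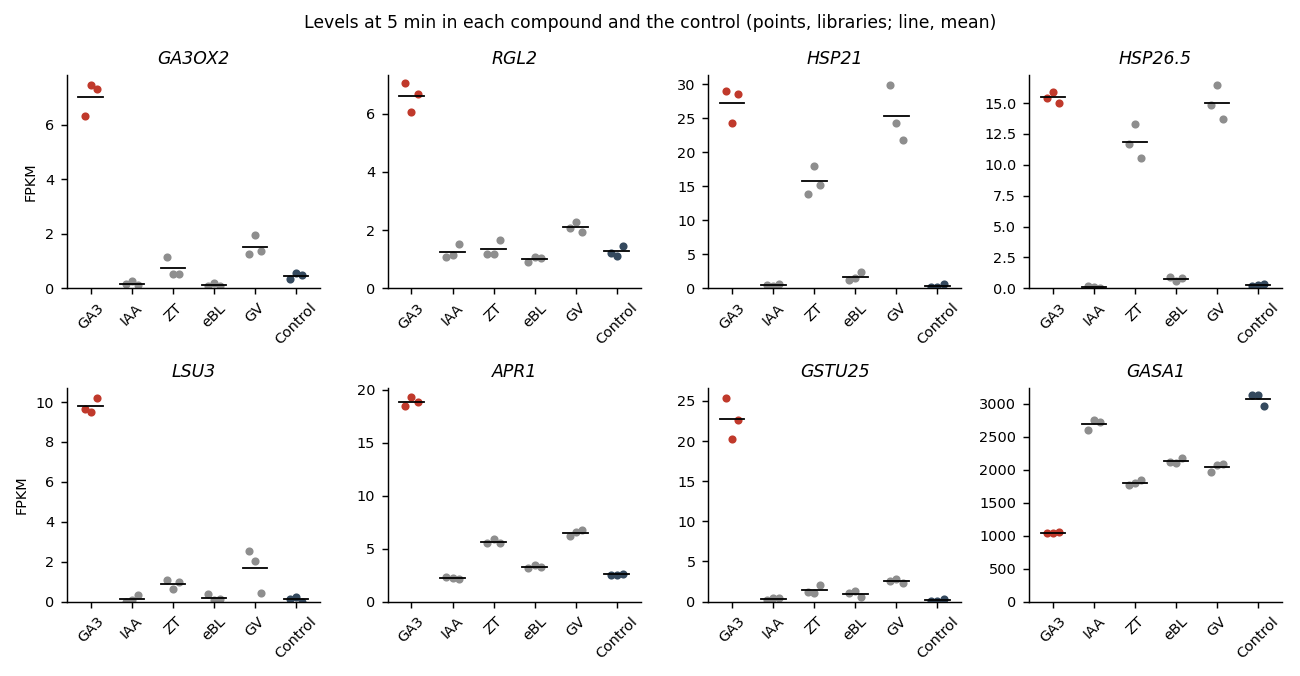
Level in FPKM (vertical, each panel with its own axis from 0) of 8 genes in 3 libraries each of GA3, IAA, ZT, eBL, GV and control at 5 min; points are libraries and lines are means. HSP21 and HSP26.5 are high with GA3, GV and ZT, while GA3OX2, RGL2, LSU3, APR1 and GSTU25 are highest with GA3 and GASA1 is lowest with GA3.

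The same genes were followed to 30 and 180 min in the GA3 and control groups. GA3 and control differed in 3613 genes at 30 min (38.5%) and 4493 at 180 min (47.8%). The difference between GA3 and control at 30 min departed from that at 5 min in 4417 genes (47.0%), 1610 upward and 2807 downward, or 2371 and 1978 with quantile normalization. For 180 against 5 min it was 4431 genes (47.2%), 1466 upward and 2965 downward, or 2161 and 1944 with quantile normalization. At 30 and 180 min the mean absolute log2 difference from control, over genes with at least 1 FPKM in any group of that time, was 0.33 and 0.40 for GA3, 0.38 and 0.41 for ZT and 0.43 and 0.37 for eBL, beside 0.19 and 0.22 for GV and 0.22 and 0.26 for IAA. GA3 was therefore also set against the mean of ZT and eBL of the same time, an alternative chosen after seeing the data that left out eBL 30 min replicate 3. Against them 1707 genes at 30 min and 3228 at 180 min differed.

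GA3OX1, GA3OX2 and RGL2, higher with GA3 at 5 min, were lower at 30 min. GA3OX1 averaged 8.73, 2.27 and 2.71 FPKM with GA3 at 5, 30 and 180 min, against 2.30, 5.53 and 5.47 FPKM in control, and its difference was -1.0002 at 30 min (adjusted p = 3.70e-06) and -0.81 at 180 min (adjusted p = 2.36e-05). GA3OX2 averaged 7.04, 0.786 and 4.39 FPKM with GA3 at 5, 30 and 180 min, against 0.467, 1.94 and 7.38 FPKM in control, with differences of -0.71 at 30 min (adjusted p = 2.26e-04) and -0.63 at 180 min (adjusted p = 4.32e-04). Against ZT and eBL at 180 min the difference of GA3OX1 was -0.08 and no longer called, and that of GA3OX2 turned to 1.45. RGL2 averaged 6.59, 1.59 and 7.30 FPKM with GA3 at 5, 30 and 180 min, against 1.27, 4.09 and 6.82 FPKM in control, with differences of -0.97 at 30 min (adjusted p = 1.05e-06) and 0.08 at 180 min (adjusted p = 0.537), and of 1.07 against ZT and eBL at 180 min.

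GASA1, lower with GA3 at 5 min, averaged 1044, 2805 and 2143 FPKM with GA3 at 5, 30 and 180 min, against 3078, 1928 and 1180.3 FPKM in control, with differences of 0.54 at 30 min (adjusted p = 6.16e-06) and 0.85 at 180 min (adjusted p = 1.06e-08), and of -0.13 against ZT and eBL at 180 min, not called. HSP21 averaged 27.3, 13.9 and 18.0 FPKM with GA3 at 5, 30 and 180 min, against 0.351, 7.47 and 0.169 FPKM in control. It stayed higher with GA3 at both later times, by 0.81 at 30 min (adjusted p = 3.24e-05) and 4.03 at 180 min (adjusted p = 6.12e-15). LSU3 averaged 9.79, 0.995 and 0.268 FPKM with GA3 at 5, 30 and 180 min, against 0.113, 0.120 and 0.264 FPKM in control, and its difference at 180 min was not called (adjusted p = 0.984). CHS averaged 23.2, 6.28 and 10.7 FPKM with GA3 at 5, 30 and 180 min, against 3.81, 14.6 and 13.4 FPKM in control. Its difference was -1.10 at 30 min (adjusted p = 2.02e-09) and -0.30 at 180 min (adjusted p = 0.00309), and the sign was positive at both times against ZT and eBL (0.31 and 1.19). ICL averaged 3038, 673 and 6301 FPKM with GA3 at 5, 30 and 180 min, against 413, 3262 and 1819 FPKM in control, with differences of -2.28 at 30 min (adjusted p = 2.38e-17) and 1.79 at 180 min (adjusted p = 5.74e-16). The control levels of ICL, CHS, RGL2, GA3OX1 and GA3OX2 were themselves at their lowest at 5 min.

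**Figure D5:**
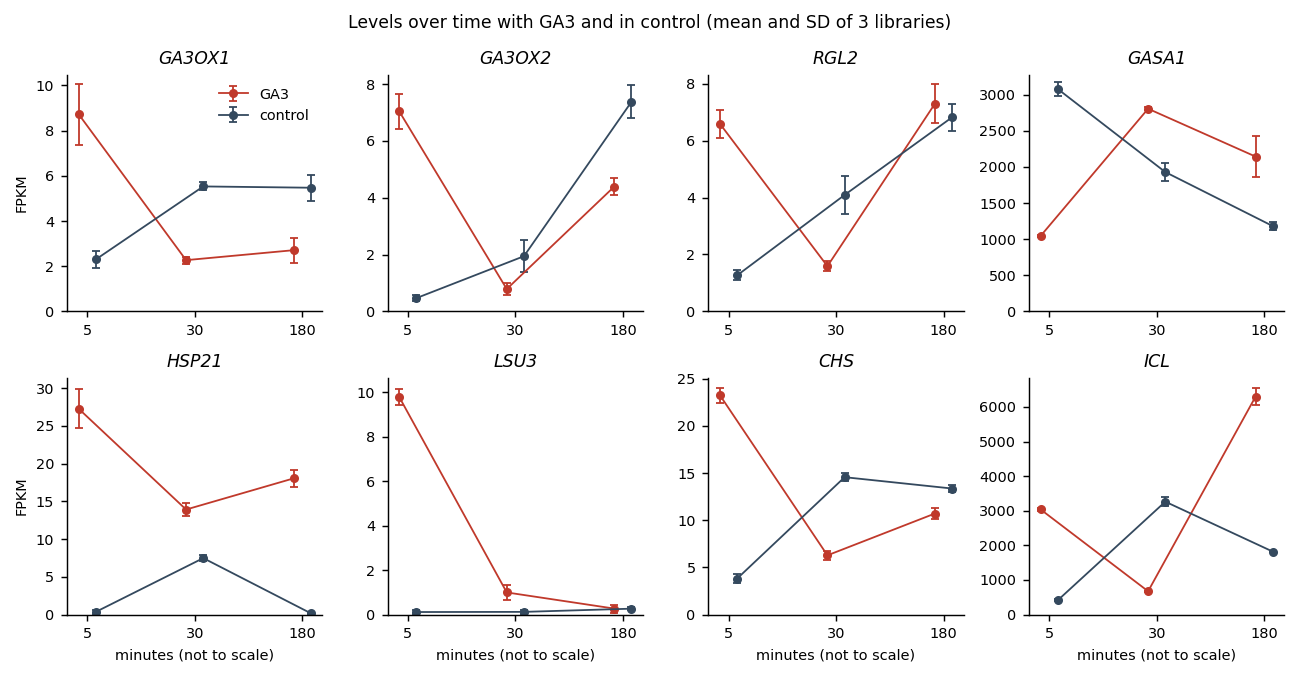
Level in FPKM (vertical, each panel with its own axis from 0) of 8 genes at 5, 30 and 180 min (horizontal, not to scale) with GA3 (red) and in control (dark), mean and SD of 3 libraries. GA3OX1, GA3OX2, RGL2, CHS and ICL are above control at 5 min and below it at 30 min, GASA1 is below at 5 min and above later, and HSP21 is above at all times.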

How the data were processed

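The values the authors deposited are FPKM per gene and library, a unit read from the table: multiplied by gene length, the values of a library were whole multiples of 1 step, within 0.05 reads. The submitters' processing notes name Bowtie2 2.2.3 and the TAIR10 build; no counter or strand setting is given in the sources used here, and overlapping antisense genes cannot be told apart. Columns were matched to libraries by name, GV by elimination. Of 24000 lines 3 damaged ones were left out. Levels between 10.5 and 344 FPKM (mean over all libraries) hold no rows, so such genes were not analysed here.

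Genes averaging 1 FPKM or more in either group were tested with limma 3.58.1 in R 4.3.3 (trend and robust) on log2(FPKM + 1), using the 18 libraries of 5 min, or the 18 GA3 and control libraries for times, with Benjamini-Hochberg adjustment over all genes tested and a call at adjusted p under 0.05. Named genes were the 15 called genes with the largest change each way, without overlap between the groups and with at least 3 FPKM, up to 4 per list by smallest adjusted p, and all gibberellin genes tested. Genes and lists were chosen with earlier results of these data known. The steps were tested on simulated data. Alternatives were another pseudocount, scaling, filter, set of libraries, reference or replicate block, and leaving out single libraries.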

Additional observations from a re-analysis of the deposited data

Results flagged for a closer look

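The effect of GA3 against control differed between times by the test of the difference itself (limma, adjusted p under 0.05) in 4417 genes for 30 against 5 min and in 4431 genes for 180 against 5 min. These counts rest on the libraries of 3 times with 1 set of control libraries each, so the compound and the harvest cannot be told apart.

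Among the gibberellin genes the effect at 30 min minus that at 5 min, on the log2 scale, was -2.56 for GA3OX1, -3.16 for GA3OX2 and -2.72 for RGL2, and at 180 minus 5 min it was -2.37, -3.09 and -1.66. For GASA1 it was 2.101 at 30 minus 5 min and 2.41 at 180 minus 5 min. With ZT and eBL of the same time in place of control these differences kept their sign and their call.

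HSP21 had a difference of -3.58 at 30 minus 5 min. LSU3 had -2.46 and -3.29, CHS -3.44 and -2.63, and ICL -5.15 and -1.08, each at 30 and at 180 minus 5 min. For CHS the difference at 180 minus 5 min fell short of the threshold against ZT and eBL (-0.34, adjusted p = 0.0886).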

How the results depend on the processing

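The number of genes called between GA3 and control at 5 min was 4271 and lay between 3576 and 4630 under every alternative run, and between 3754 and 3829 without single libraries. Its split did change: the lower genes were 2403 with quantile normalization and 2669 with median centring, against 1488, and for GA3 against IAA they were 2313 with quantile normalization. For the effect at 180 minus 5 min the lower genes were 1944 with quantile normalization. With ZT and eBL in place of control the genes called were 1707 at 30 min (613 higher, 1094 lower), 1560 lower at 180 min, and 2295 for 180 minus 5 min (1292 lower). The causes were not tested. Of 126 described genes called, 120 kept their call without each single library. Quantile normalization ended 14 calls, those of LHCB1.3 and RBCS1A by construction, and turned UGT74E2 to -0.36, and a pseudocount of 0.1 turned the difference of HSP21 at 180 minus 5 min, not called, to 0.24. That difference was called without control 5 min replicate 3 (-0.52) or control 180 min replicate 2 (-0.47). GA3 and control libraries share replicate numbers, but same-numbered libraries did not deviate together (correlations -0.0194 to -0.00505). With 3 libraries per group this cannot settle whether the numbers stand for a shared culture or harvest, which the labels do not state. A replicate block gave 4230 calls and changed no call of a described gene. One read in a gene of 1 kb was worth 0.0496 to 0.0562 FPKM, so low values rest on few reads.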

Other observations

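Families chosen after their values were seen add the following at 5 min, beside 29.6% higher and 15.8% lower over all genes tested. Of kinesins, motors of the spindle and cell plate, 19 of 24 passed as higher and 1 as lower, with KIN14N and KIN7F up by 0.83 and 0.80 and KIN14U down at -0.54. Of the 24 kinesins tested, 6 had entered through their GA3 level. Quantile normalization gave 9 higher and 1 lower kinesins. Of cysteine-rich receptor kinases, membrane kinases often linked to defence, 1 of 16 passed as higher and 8 as lower. CRK13 averaged 3.54 ± 0.198 FPKM with GA3 and 9.42 ± 0.688 FPKM in control and CRK12 averaged 1.15 ± 0.150 FPKM with GA3 and 3.33 ± 0.287 FPKM in control, while with the other 4 compounds the mean of CRK13 lay between 6.51 and 45.3 FPKM. Of arabinogalactan proteins of the cell surface 6 of 9 passed as higher and 0 as lower, with AGP3 at 13.8 ± 1.26 FPKM with GA3 and 3.22 ± 0.335 FPKM in control.

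Of small nucleolar RNA genes, which guide the modification of ribosomal RNA, 22 of 98 passed as higher and 0 as lower, a smaller share higher than over all genes, and 33 of those tested had entered through their GA3 level. Of chloroplast-encoded genes 0 of 60 passed as higher and 18 as lower, with a median of -0.54, and of mitochondrion-encoded genes 4 of 9 passed as higher and 0 as lower, 7 of those tested having entered through their GA3 level. The chloroplast-encoded genes tested summed to 114 to 140.2 FPKM with GA3 and 207 to 229 FPKM in control. Of pentatricopeptide proteins of the PCMP group, which edit organelle transcripts, 22 of 106 passed as higher and 2 as lower, both smaller shares than over all genes, a balance that turned to 4 higher and 18 lower with quantile normalization. Of the 106 tested, 22 had entered through their GA3 level and 2 through their control level.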
